A study of Mus musculus with 4 samples.

Results

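The hyalectans and their link proteins were followed across the tissue spots of fetal mouse heads, with cartilage set against brain. The 8 genes were taken by symbol from the 19465 genes listed for every sample, and each symbol matched 1 row. They are the 4 hyalectans Acan (aggrecan), Bcan (brevican), Ncan (neurocan) and Vcan (versican), and the 4 link proteins Hapln1, Hapln2, Hapln3 and Hapln4. RNA was measured with Visium, in which a tissue section lies on barcoded spots where captured molecules are told apart and counted by unique molecular identifiers (UMIs). The heads were wild-type C57BL/6J embryos at E14.5 and E15.5, fixed in formalin, embedded in paraffin and cut coronally at mid-palate. No group carried another allele or treatment. Each stage had 2 capture areas, and each area was 1 library. The area of replicate 1 held 1 section and the other area held replicates 2, 3 and 4 as 3 sections, here lettered A to C by their place on the array, because the labels do not say which is which. The study describes its spatial experiments as biological replicates, but the sources used here do not tie a section or an area to an embryo, so p-values measure the spread between these capture areas.

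Hyalectans are large secreted proteoglycans that carry chondroitin sulfate chains and bind hyaluronan at their N-terminal end, while the C-terminal lectin domain binds other matrix proteins such as tenascins. Link proteins are small proteins that bind both hyaluronan and the hyalectan and so hold the aggregate together. Aggrecan aggregates give cartilage its swelling resistance, neurocan and brevican belong to the matrix of the central nervous system, and versican is the hyalectan of loose embryonic mesenchyme.

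The 8 genes sit in the genome as 4 pairs of a hyalectan and a link protein. In the GENCODE M21 annotation of GRCm38, Acan (chr7:79053483-79115099, plus strand) and Hapln3 (chr7:79115102-79131018, minus strand) end toward each other with 2 bases between them. Ncan (chr8:70093085-70120873, minus strand) and Hapln4 (chr8:70083457-70090862, plus strand) end toward each other 2222 bases apart. Vcan (chr13:89655312-89742509, minus strand) and Hapln1 (chr13:89539796-89611652, plus strand) are also convergent, with 43659 bases between them. Bcan (chr3:87987531-88000230) and Hapln2 (chr3:88021750-88027583) both lie on the minus strand, 21519 bases apart. The annotation has 0 other genes between the members of each pair. All 8 are protein-coding, and the intervals above span the whole gene with its exons and introns.

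Acan and Hapln1 carried the cartilage pattern and Ncan the brain pattern described below, so the 250 bases before their RefSeq starts (GRCm38.p6) are shown, 5′ to 3′ on the strand of the gene. Capitals mark a match to TATAAA on either strand. The windows lie at chr7:79052976-79053225 for Acan (plus strand), chr13:89540386-89540635 for Hapln1 (plus strand) and chr8:70120845-70121094 for Ncan (minus strand).
Acan: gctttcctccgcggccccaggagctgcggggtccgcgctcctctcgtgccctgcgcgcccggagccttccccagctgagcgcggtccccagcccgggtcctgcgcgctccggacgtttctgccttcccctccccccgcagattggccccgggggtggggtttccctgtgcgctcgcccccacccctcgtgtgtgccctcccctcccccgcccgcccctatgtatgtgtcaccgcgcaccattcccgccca
Hapln1: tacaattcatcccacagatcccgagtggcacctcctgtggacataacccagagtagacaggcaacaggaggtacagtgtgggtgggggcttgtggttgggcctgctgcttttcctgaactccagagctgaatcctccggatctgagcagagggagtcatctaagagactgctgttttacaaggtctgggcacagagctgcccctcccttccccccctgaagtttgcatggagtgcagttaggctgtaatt
Ncan: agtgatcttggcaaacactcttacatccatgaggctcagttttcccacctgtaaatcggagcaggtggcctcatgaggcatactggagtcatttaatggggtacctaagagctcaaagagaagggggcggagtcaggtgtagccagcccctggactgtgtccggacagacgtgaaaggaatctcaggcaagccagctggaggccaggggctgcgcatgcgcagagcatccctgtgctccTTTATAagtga

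The Acan window was 74.4% G and C, against 54.4% for both Hapln1 and Ncan and a median of 52.4% over all RefSeq windows of this length. The Ncan window held 1 match to TATAAA near its 3′ end, and 12.4% of 32851 windows hold that run on either strand. The runs ACAAAG and ACAATG, which resemble the core that SOX factors bind, were searched on both strands. They occurred in neither the Acan nor the Hapln1 nor the Ncan window, and 25.2% of all windows hold at least 1 of them. No match says only that these letters are not in these windows. RefSeq windows were found for 7 of the 8 genes.

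Cartilage spots were those over a threshold in the summed level of 10 cartilage genes, such as Col2a1 and Matn1, and brain spots those over a threshold in 15 brain genes, such as Tbr1 and Neurod2. None of the 8 genes was on either list, and thresholds were set section by section on spots of at least 1000 UMIs. This gave 1554 cartilage and 1803 brain spots of 6357 over tissue, with 447 spots over both thresholds kept out. The sums per area held 2391621 to 29392196 UMIs for cartilage and 8854967 to 34349136 for brain, and the shallowest cartilage sum was that of E14.5 replicate 1. The cartilage list stood at 6078 to 17026 CPM (counts of a gene or list per 1000000 summed UMIs) in the cartilage spots and at 472 to 1394 CPM in the brain spots of the 4 areas. Levels below are CPM of the summed UMIs, which are not corrected for capture efficiency and are not compared between genes.

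Some spots went against the name of their region. Section B of the E15.5 area with 3 sections contained little brain. Its 222 spots over the brain threshold had a median brain-list level of 387 CPM, against 4204 to 5825 CPM in the other 7 sections, and 1 spot of the section reached 1500 CPM. These 222 were among the 509 brain spots of that area, so the differences that use brain are also given without them below. The cartilage threshold also admitted bone. Bone spots were taken as 299 spots among the 5% highest of their section for 7 bone genes and not among the 5% highest for cartilage genes. Of these, 81.9% were among the cartilage spots, a count without spots over both thresholds. Other spots within the brain carried choroid plexus genes, mainly in E14.5 sections B and C. In a sum of spots, fewer cells of a type and less RNA per cell cannot be told apart.

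Acan and Hapln1 were higher in cartilage than in brain in every capture area, with ratios of 12.2 to 23.4 for Acan and 9.05 to 21.1 for Hapln1, and Ncan was higher in brain in every area. Acan stood at 180 CPM in the cartilage of E14.5 replicate 1, 112 in E14.5 replicates 2,3,4, 75.1 in E15.5 replicate 1 and 382 in E15.5 replicates 2,3,4, and at 14.8, 4.77, 4.65 and 25.5 CPM in the brain of the same areas. Every cartilage value lay above every brain value, although cartilage itself varied about as much as its mean (187 ± 137 CPM, SD, n = 4 areas). The difference was 3.93 ± 0.19 (log2, SE) or 15.2-fold (edgeR quasi-likelihood test with the capture area as block, adjusted p = 0.00032). Without the brain spots of section B it was 4.17.

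Hapln1, the link protein of cartilage, followed Acan. It stood at 262, 126, 111 and 475 CPM in the cartilage of the areas in the same order, and at 28.9, 6.17, 5.23 and 31.6 CPM in brain. The groups did not overlap, and the difference was 3.86 ± 0.25 (log2, SE), 14.5-fold (edgeR adjusted p = 0.00034), or 4.12 without the brain spots of section B. Both genes were highest in the cartilage of E15.5 section B, with 776 CPM of Acan and 939 CPM of Hapln1, and that section also had the highest median cartilage-list level in its cartilage spots (23814 CPM, against 2769 to 10623 in the other 7). The part of the list level in the spread of Acan and Hapln1 between areas was not tested.

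Ncan, the neurocan gene of neural tissue, ran the other way. It stood at 144, 111, 152 and 70.3 CPM in the brain of the areas and at 20.1, 9.36, 17.1 and 11.5 CPM in cartilage, so the groups did not overlap. Ncan was 8.89-fold lower in cartilage (log2 difference -3.15 ± 0.19, SE, edgeR adjusted p = 0.00033). The low brain value of E15.5 replicates 2,3,4 came with section B, and it was 165 CPM without it, with a log2 difference of -3.48.

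Bcan was also lower in cartilage, but its brain level differed widely between sections. It stood at 14.8, 110, 5.60 and 14.2 CPM in the brain of the areas and at 5.44, 8.20, 2.79 and 7.16 CPM in cartilage. The brain value was the higher in each area, yet the groups overlapped, since the brain of E15.5 replicate 1 stood below the cartilage of E14.5 replicates 2,3,4 and E15.5 replicates 2,3,4. The difference was -1.94 ± 0.54 (log2, SE), 3.83-fold lower in cartilage (edgeR adjusted p = 0.025). E14.5 replicates 2,3,4 carried much of it, since without that area it was -1.19 (adjusted p = 0.023) and without E15.5 replicates 2,3,4 it was -2.70 (0.0035). It was -2.40 without the brain spots of section B and -1.49 ± 0.25 without brain spots that carried choroid plexus genes (adjusted p = 0.0037). Without the cartilage spots that were among the 5% highest for bone genes it was -2.61 ± 0.51 (edgeR adjusted p = 0.0083).

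Hapln4, a link protein known from the matrix around neurons of the mature brain, was higher in the cartilage spots. It stood at 6.69, 9.66, 4.01 and 8.74 CPM in cartilage and at 0.791, 1.98, 1.27 and 2.14 CPM in brain, with no overlap. These values rested on few molecules, with 16 UMIs in the cartilage and 7 in the brain of E14.5 replicate 1. The difference was 2.10 ± 0.26 (log2, SE), 4.29-fold (edgeR adjusted p = 0.0019). Without the cartilage spots that were among the 5% highest for bone genes it fell to 1.13 ± 0.27 (adjusted p = 0.016), and without the brain spots of section B it was 2.37.

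Vcan, the versican gene, was the most even hyalectan. It stood at 247, 216, 251 and 241 CPM in cartilage and at 166, 145, 118 and 248 CPM in brain, and the 2 sets overlapped through the brain of E15.5 replicates 2,3,4. The difference of 0.45 ± 0.16 (log2, SE), 1.37-fold, passed the threshold of 0.1 (edgeR adjusted p = 0.055). It lost the call when E14.5 replicate 1, E14.5 replicates 2,3,4 or E15.5 replicate 1 was left out (adjusted p = 0.13, 0.14 and 0.17) and with no replicate block (0.11). Without the brain spots of section B it was 0.58, and the brain of that area stood at 184 CPM, below all cartilage values.

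Hapln3, a link protein with wide tissue distribution, stood at 4.12 to 7.11 CPM in cartilage and 4.18 to 5.49 CPM in brain. The ranges overlapped, and the difference of 0.19 ± 0.20 (log2, SE) was within the spread between areas (edgeR adjusted p = 0.45), and was 0.10 without the brain spots of section B. Hapln2, a link protein of myelinated axons, had 62 UMIs in all tissue spots together, and 1 to 19 UMIs in any cartilage or brain sum. It did not pass the filter on low counts in the region comparisons, and a difference between regions was not detectable at this depth.

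**Figure D1:**
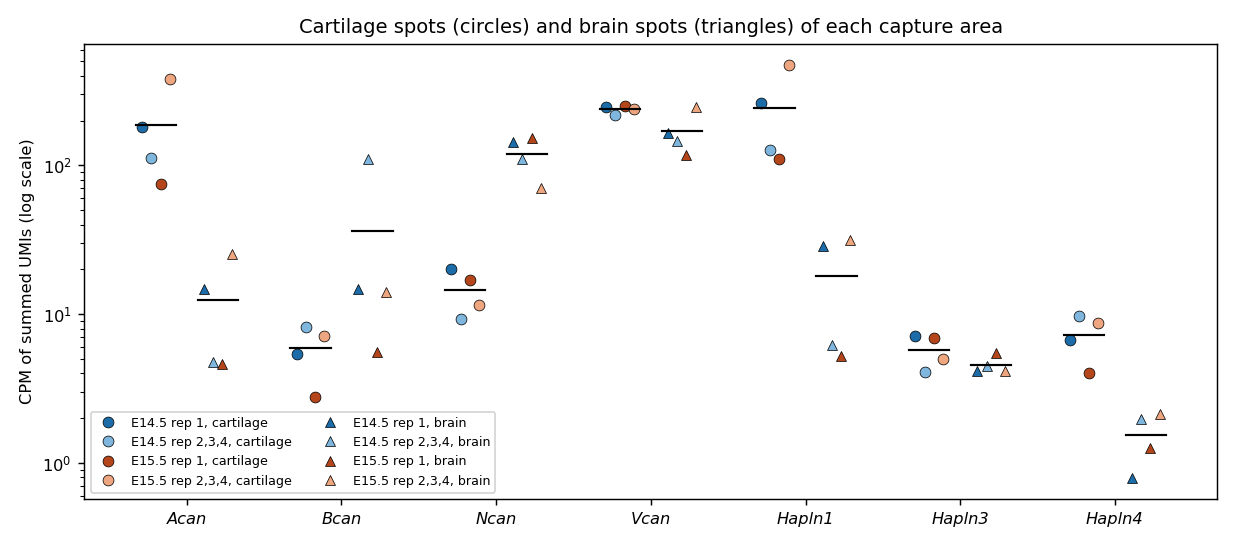
Level of each gene (CPM of summed UMIs, log scale) in the cartilage spots (circles) and brain spots (triangles) of the 4 capture areas, with the mean as a bar. Acan, Hapln1 and Hapln4 stand higher in cartilage and Ncan in brain with no overlap, while Bcan, Vcan and Hapln3 overlap. Of all genes tested, 66.2% were called in this comparison, and the share of genes without overlap is not given here. Mean Hapln4 was 24.9 CPM in cartilage spots among the 5% highest for bone genes and 3.78 CPM in the other cartilage spots. Hapln2 is left out because it had 62 UMIs in all.

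Of the 7 genes tested, 4 were called higher in cartilage, 2 lower and 1 not. Over all 14651 genes tested, 66.2% were called, 32.5% higher and 33.7% lower, so a call in this comparison sets no gene apart. The share of all genes whose cartilage and brain values did not overlap is not given here. The median log2 difference was 0.45 over the 7 genes and 0.01 over all genes tested. Cartilage spots held 25.1% of all tissue UMIs and brain spots 29.6%. Cartilage held 66.5% of the Acan UMIs and 67.4% of the Hapln1 UMIs, brain held 75.3% of Ncan and 80.6% of Bcan, and Vcan was divided into 27.9% in cartilage and 23.5% in brain. Spots over both thresholds, kept out of both regions, held 20.6% of the Acan and 18.2% of the Hapln1 UMIs, against 7.12% of all tissue UMIs. The cartilage share by area was 50.9, 69.4, 47.1 and 71.3% for Acan and 50.2, 70.3, 51.8 and 72.2% for Hapln1. The Bcan share was set by E14.5 replicates 2,3,4, which held 4365 of its 5359 UMIs. By area, brain held 78.0, 86.6, 49.5 and 48.9% of the Bcan UMIs (mean 65.8 ± 19.4, SD) and 88.2, 75.7, 75.7 and 65.3% of the Ncan UMIs (mean 76.2 ± 9.40).

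**Figure D2:**
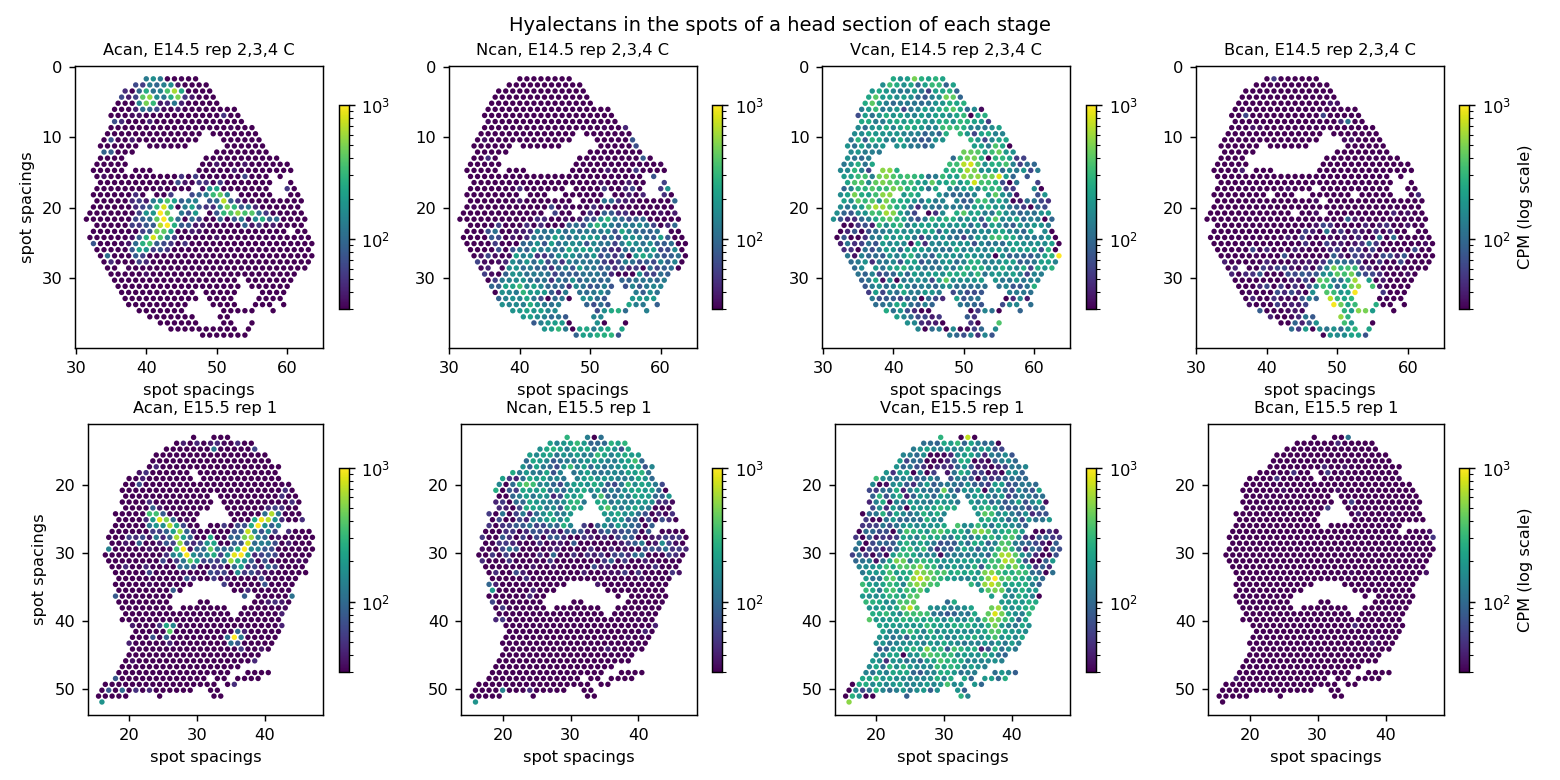
CPM of Acan, Ncan, Vcan and Bcan in each spot of E14.5 section C and of the E15.5 replicate 1 section (axes in spot spacings, log color scale, values below 30 CPM drawn at 30 and above 1000 at 1000). Acan marks narrow bars, Ncan the brain (at the bottom of the E14.5 section and the top of the E15.5 section), Vcan nearly all spots with patches beside the oral cavity, and Bcan 1 patch within the brain of the E14.5 section.

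The genes that make, bind and cut the same matrix were taken from a list of 48 partners, of which 46 were tested between cartilage and brain. Of these, 32 were called higher in cartilage, 6 lower and 8 not, with a median log2 difference of 0.76. Over all genes tested, 32.5% were called higher and 33.7% lower, with a median of 0.01. The largest differences toward cartilage were in Chst13, a chondroitin 4-sulfotransferase (3.59 ± 0.45, log2, SE), Papss2, which makes the sulfate donor (2.69 ± 0.21), and Has2, a hyaluronan synthase (2.58 ± 0.72). Cspg4, a membrane chondroitin sulfate proteoglycan, was higher by 2.27 ± 0.19, Adamts9, a protease that cuts versican and aggrecan, by 2.03 ± 0.33, and Cd44, a hyaluronan receptor, by 1.99 ± 0.41. All had edgeR adjusted p under the threshold, between 0.00049 and 0.025.

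All 6 partners called lower in cartilage are named here. Tnr, the gene of tenascin-R, a ligand of the hyalectan lectin domain, stood at -3.01 ± 0.17 (log2, SE), Ptprz1, a receptor phosphatase with chondroitin sulfate chains, at -2.40 ± 0.29, and Cspg5, a neural proteoglycan, at -2.01 ± 0.14. Has3, another hyaluronan synthase, stood at -1.08 ± 0.33, Cemip2, a cell surface hyaluronidase, at -0.52 ± 0.11, and B3galt6, an enzyme of the chain linkage, at -0.38 ± 0.09 (edgeR adjusted p between 0.00033 and 0.033 for the 6).

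Within brain, spots were ordered by the ratio of 7 radial glia genes, such as Nes and Fabp7, to 10 neuron genes, such as Mapt and Stmn2, and each section was cut into 3 equal parts, of which the highest (radial glia zone) was set against the lowest (neuronal zone). Ncan was higher in the neuronal zone in every area. It stood at 109, 88.0, 102 and 47.3 CPM in the radial glia zone of the 4 areas, in the order used above, and at 180, 140, 206 and 87.6 CPM in the neuronal zone. The zones overlapped between areas only through E15.5 replicates 2,3,4, which stood at 113 and 214 CPM without section B. The difference was -0.89 ± 0.09 (log2, SE) toward the neuronal zone (edgeR adjusted p = 0.0015), and -0.88 without the brain spots of section B. With no replicate block the adjusted p was 0.13.

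Bcan lay on the opposite side. It stood at 27.3, 208, 4.93 and 19.6 CPM in the radial glia zone and at 6.20, 35.3, 6.31 and 7.40 CPM in the neuronal zone, higher in the radial glia zone in 3 of 4 areas. The difference was 1.55 ± 0.45 (log2, SE, edgeR adjusted p = 0.039), and the call was lost when E14.5 replicate 1 (adjusted p = 0.16) or E14.5 replicates 2,3,4 (0.16) was left out and with no replicate block (0.27). Without the brain spots of section B it was 1.69 (edgeR adjusted p = 0.010). Over the sections the radial glia zone ranged from 4.79 to 280 CPM of Bcan, with the 2 highest values, 280 and 171, in E14.5 sections B and C.

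Choroid plexus genes moved with these Bcan values. The 4 genes of that list, Ttr among them, stood at a mean of 18310 and 5651 CPM in the radial glia zones of E14.5 sections B and C and at 15.7 to 989 CPM in the other 6 sections. Spots of the zone with less than 1000 CPM of that list had 18.4 CPM of Bcan in section B (24 of 83 spots) and 94.6 CPM in section C (39 of 108 spots). The limit of 1000 CPM was chosen after these values had been seen. Without the brain spots at or above it, the zone difference of Bcan was 1.05 ± 0.34 (log2, SE, edgeR adjusted p = 0.044). In E15.5 section A the zone stood at 60.1 CPM of Bcan with 18.7 CPM of the list.

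Vcan differed less between the zones, with 141, 149, 94.3 and 222 CPM in the radial glia zone and 194, 146, 135 and 268 CPM in the neuronal zone. The zones overlapped, and the difference of -0.37 ± 0.11 (log2, SE, edgeR adjusted p = 0.041) lost the call when E14.5 replicate 1 or E15.5 replicate 1 was left out (adjusted p = 0.21 for both), with sections as samples (0.11), at a fixed list level (0.27) and with no replicate block (0.50). It was -0.28 without the brain spots of section B (edgeR adjusted p = 0.078). Acan, Hapln1, Hapln3 and Hapln4 were not called, with log2 differences of -0.33 ± 0.37, -0.46 ± 0.36, 0.44 ± 0.22 and -0.52 ± 0.61. Stricter brain spots brought Acan and Hapln1 past the threshold, at -1.21 and -1.44 in the 10% of spots highest in brain genes (edgeR adjusted p = 0.066 and 0.017). Of the 7 tested, 1 was called higher in the radial glia zone and 2 lower, beside 45.1% of 13377 genes called in either direction, 19.9% higher and 25.2% lower.

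Of 45 partners tested between the zones, 13 were called higher in the radial glia zone and 10 lower, beside 19.9% and 25.2% of all genes tested. The largest toward the radial glia zone were Chst3, a chondroitin 6-sulfotransferase (1.74 ± 0.29, log2, SE), Tnc, the gene of tenascin-C (1.57 ± 0.29), and Tnfaip6, which modifies hyaluronan (1.53 ± 0.30). The largest toward the neuronal zone were Tnr (-1.87 ± 0.17), Has3 (-1.47 ± 0.26) and Chsy3, which extends chondroitin chains (-0.85 ± 0.23). Their edgeR adjusted p lay between 0.0011 and 0.030. The tenascin genes thus differed in opposite directions, with Tnr on the side of Ncan and Tnc on the side of Bcan.

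**Figure D3:**
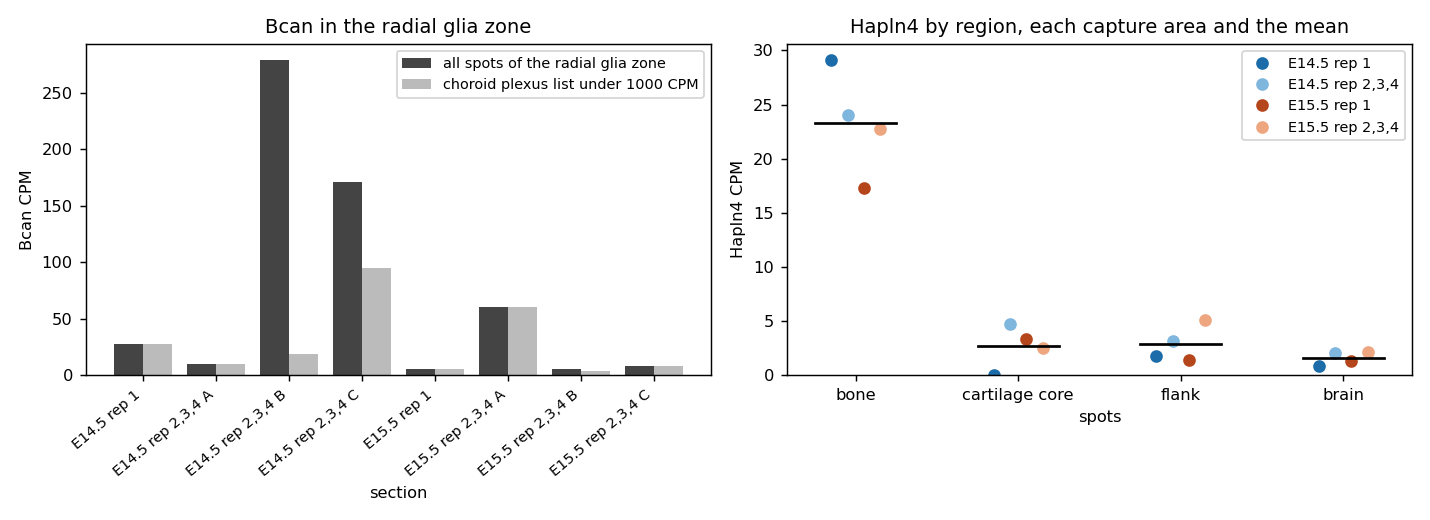
Left, CPM of Bcan in the radial glia zone of each section, over all its spots (dark) and over spots with less than 1000 CPM of choroid plexus genes (light), which lowers sections B and C of E14.5 from 280 to 18.4 and from 171 to 94.6. Right, CPM of Hapln4 in bone, cartilage core, flank and brain spots of each capture area (points) with the mean (bar), highest in bone in every area.

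Cartilage was next set against its flank, the spots that passed neither threshold and lay within 2 spot spacings of cartilage. Distances started from every spot over the cartilage threshold, also from those over both thresholds, which were not in the cartilage values. Acan and Hapln1 dropped at the edge of the cartilage. Acan stood at 16.6, 9.48, 7.83 and 39.6 CPM in the flank of the 4 areas, below every cartilage value, and was 3.37 ± 0.06 (log2, SE) higher in cartilage (edgeR adjusted p = 8.2e-07). Hapln1 stood at 25.3, 14.6, 21.8 and 41.9 CPM in the flank, again below every cartilage value, with a difference of 3.08 ± 0.19 (edgeR adjusted p = 0.00011). With distance, the mean of Acan over the areas was 187 CPM in cartilage, 21.6 at the first spacing, 13.8 at the second and 9.24 at the fourth. The profile depended on the rule for cartilage spots. At a fixed list level Acan stood at 452, 69.1, 34.8 and 16.7 CPM in the same order, and Hapln1 at 555, 96.3, 47.5 and 20.7 CPM.

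Vcan did not drop. Its mean over the areas was 239 CPM in cartilage, 261 at the first spacing, 257 at the second, 231 at the third and 199 at the fourth. The flank of the areas stood at 270, 253, 215 and 301 CPM and overlapped the cartilage values. The difference was -0.12 ± 0.08 (log2, SE, edgeR adjusted p = 0.36), but Vcan was called lower in cartilage under the 3 stricter choices of cartilage spots, at -0.34 with a threshold 1 log2 unit higher, -0.38 in the 10% of spots highest in the list and -0.49 at a fixed list level (adjusted p = 0.0019, 0.00029 and 1.7e-05). It was also called lower with sections as samples, at -0.20 (edgeR adjusted p = 0.023), and without E15.5 replicate 1, at -0.21 (0.031).

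**Figure D4:**
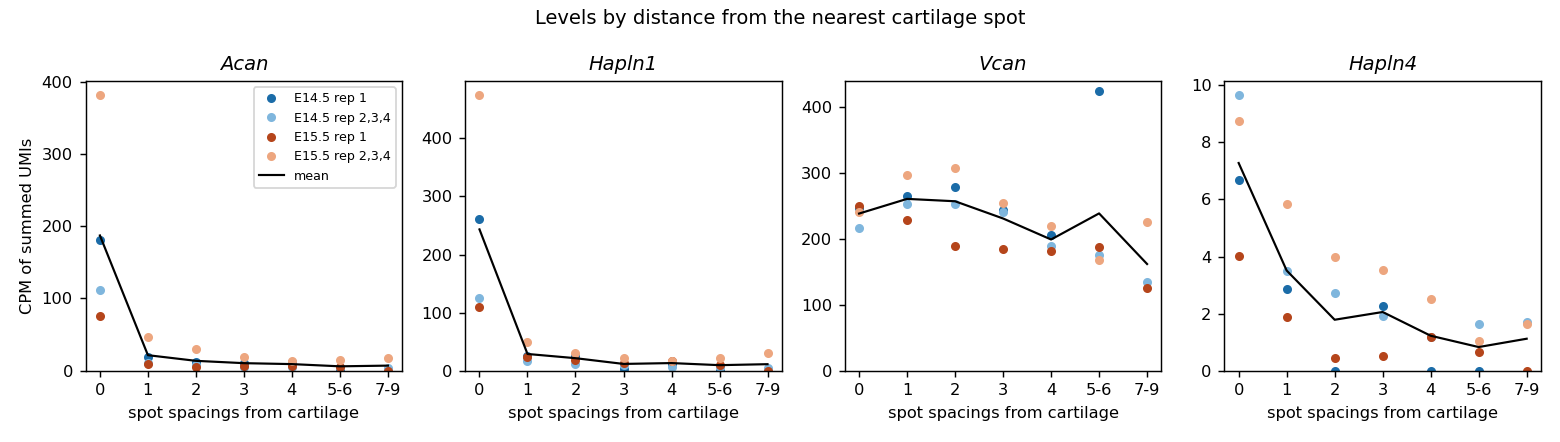
Level (CPM of summed UMIs) of Acan, Hapln1, Vcan and Hapln4 by distance from the nearest spot over the cartilage threshold, in spot spacings, with brain spots left out. The values at 0 are those of the cartilage spots, without spots over both thresholds. Points are capture areas and the line is their mean. Acan and Hapln1 fall at the first spacing, and Vcan stays between 199 and 261 CPM over spacings 0 to 4. The farthest bins hold few spots of E14.5 replicate 1.

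Hapln4 and Bcan were called higher in cartilage than in the flank, by 1.32 ± 0.20 and 0.91 ± 0.19 (log2, SE, edgeR adjusted p = 0.0048 and 0.016). Hapln4 stood at 1.74, 3.12, 1.37 and 5.04 CPM in the flank, and its cartilage value was higher in each area. Both calls ended without the cartilage spots highest in bone genes, at 0.42 (adjusted p = 0.22) and 0.36 (0.35), and both differences turned negative and were not called in the 10% of spots highest in cartilage genes, at -0.11 and -0.18. With no replicate block neither was called (adjusted p = 0.16 and 0.62), and Bcan was not without E14.5 replicates 2,3,4 (0.10). Ncan and Hapln3 differed by 0.57 ± 0.21 and 0.06 ± 0.14 and were not called (adjusted p = 0.12 and 0.83), although 6 of 15 alternatives called Ncan higher in cartilage. Of the 7 tested, 4 were called higher and 0 lower, beside 22.3% of 14619 genes called in either direction, 11.3% higher and 11% lower.

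Of 46 partners tested against the flank, 12 were called higher in cartilage and 7 lower, beside 11.3% and 11% of all genes tested. The largest toward cartilage were Chst13 (1.60 ± 0.18, log2, SE), Papss2 (1.39 ± 0.14) and Slc35d1, which brings sugar nucleotides for chondroitin into the Golgi and endoplasmic reticulum (0.95 ± 0.07). The largest toward the flank were Has3 (-0.89 ± 0.17), Lyve1, a hyaluronan receptor of lymphatic vessels (-0.70 ± 0.24), and Tnfaip6 (-0.46 ± 0.07), all with edgeR adjusted p between 0.00028 and 0.098. Has2, named after its values were seen, was higher in cartilage than in brain but lower than in the flank (-0.33 ± 0.09, edgeR adjusted p = 0.053).

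Because bone lay within the cartilage threshold, the 299 bone spots were set against the 299 cartilage core spots, those among the 5% highest for cartilage genes and not for bone genes. This comparison was added after the bone spots had been seen. Of the core spots, 70.9% were among the cartilage spots above. The others were over the brain threshold too and had been kept out of both regions. The bone list stood at 8268 to 13139 CPM in the bone spots and 383 to 1512 CPM in the core of the areas, and the cartilage list at 3793 to 6740 and 30244 to 46478 CPM. Hapln4 stood at 29.1, 24.0, 17.3 and 22.7 CPM in bone (n = 4 areas) and at 0, 4.70, 3.35 and 2.51 CPM in the core. The 0 of E14.5 replicate 1 allows up to 6.49 CPM (3 counts, counting error only), which is also below every bone value. Hapln4 was higher in bone by 2.84 ± 0.25 (log2, SE), 7.18-fold (edgeR adjusted p = 1.3e-06).

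Bcan stood at 24.7, 14.0, 8.94 and 15.2 CPM in bone and at 4.33, 12.6, 3.90 and 5.64 CPM in the core, higher in bone in each area though with overlap. The difference was 1.04 ± 0.27 (log2, SE, edgeR adjusted p = 0.0073, and 0.10 with no replicate block). Vcan and Hapln3 were also called higher in bone, by 0.57 ± 0.08 and 0.97 ± 0.27 (adjusted p = 9.1e-05 and 0.013). Hapln3 rested on 3 to 33 UMIs per sum. The brain spots stood at 14.8, 110, 5.60 and 14.2 CPM of Bcan, below bone in every area but E14.5 replicates 2,3,4. Bone was not tested against brain.

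Acan and Hapln1 were lower in bone than in the core by 3.65 ± 0.10 and 3.24 ± 0.09 on the log2 scale (edgeR adjusted p = 2.6e-11 for both). Acan stood at 764, 387, 482 and 1150 CPM in the core and at 85.6 CPM or less in the bone of every area, with no overlap. Ncan was higher in the core as well. It stood at 28.1, 31.5, 49.6 and 23.2 CPM in the core and at 6.73, 3.39, 14.7 and 6.55 CPM in bone, a log2 difference of -2.04 ± 0.23 for bone (adjusted p = 1.1e-05). Neuron genes moved with it, at 1156 to 2293 CPM in the core and 380 to 729 CPM in bone, and their part in the Ncan value was not tested. In E15.5 section B, which held little brain, the core stood at 6.64 CPM of Ncan.

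In bone against core, 4 of the 7 genes were called higher and 3 lower, beside 42.7% of 12961 genes called, 21.2% higher and 21.5% lower. The split of all calls was even with TMM (49.6% higher) and was 25.1% higher without it, where the median log2 difference of all genes shifted by -0.18. Each of the 7 genes kept its direction and its call without it. Of 44 partners tested, 15 were called higher in bone and 12 lower. The largest toward bone were Chst13 (2.75 ± 0.19, log2, SE), Tnc (1.96 ± 0.10) and Cd44 (1.32 ± 0.09). The largest toward the core were Tnr (-2.26 ± 0.44), Xylt1, which starts the chondroitin chain (-1.81 ± 0.10), and Slc35d1 (-1.67 ± 0.14), with edgeR adjusted p of 0.0012 at most for the 6. Chst13 and Cd44 were named above as higher in cartilage than in brain, and Chst13 also than in the flank. Bone spots were part of those cartilage sums, and their part in the Chst13 and Cd44 differences was not tested.

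Beyond cartilage, brain and bone, the 5% of spots of each section highest in each of 18 marker lists gave a level for the main tissues of the head. This is a description with no test, since a list can pick spots of several tissues. Vcan was highest in the spots of palatal mesenchyme genes, with 341 ± 27.7 CPM (SD, n = 4 areas), followed by endothelium at 255 ± 35.7, epithelium at 237 ± 68.6 and bone at 236 ± 22.3 CPM. The lowest palatal mesenchyme area, at 324 CPM, stood above the highest of any other list, 306 CPM, while the next 3 overlapped. Vcan was lowest in retina spots, at 89.1 ± 20.3 CPM.

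Acan and Hapln1 were highest in the cartilage spots of this set, with 694 ± 342 and 852 CPM, and next in the spots of oligodendrocyte precursor genes, with 531 ± 321 and 684 CPM. Of the latter spots, 68.3% were cartilage spots and 2.31% brain spots, with spots over both thresholds in neither count. The oligodendrocyte precursor list contains Cspg4, which was higher in cartilage above. Ncan was highest in neuron spots (166 ± 50.5 CPM) and brain spots (164 ± 33.3 CPM), which did not differ beyond their spread, followed by radial glia (84.0 ± 24.5) and olfactory epithelium (50.7 ± 18.1). Bcan in radial glia spots stood at 26.3, 308, 4.23 and 27.8 CPM in the areas, and in E15.5 replicate 1 it was lower there than in brain (6.72), neuron (8.22) and bone spots (8.94 CPM). It reached 315 CPM in the choroid plexus spots of E14.5 replicates 2,3,4 and 3.34 to 7.72 CPM in those of the other areas, where the choroid plexus list itself stood at 240 to 3047 CPM, against 17921. Hapln4 was highest in bone, at 23.1 ± 4.72 CPM, and 0.489 to 3.15 CPM in the spots of the other 17 lists.

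**Figure D5:**
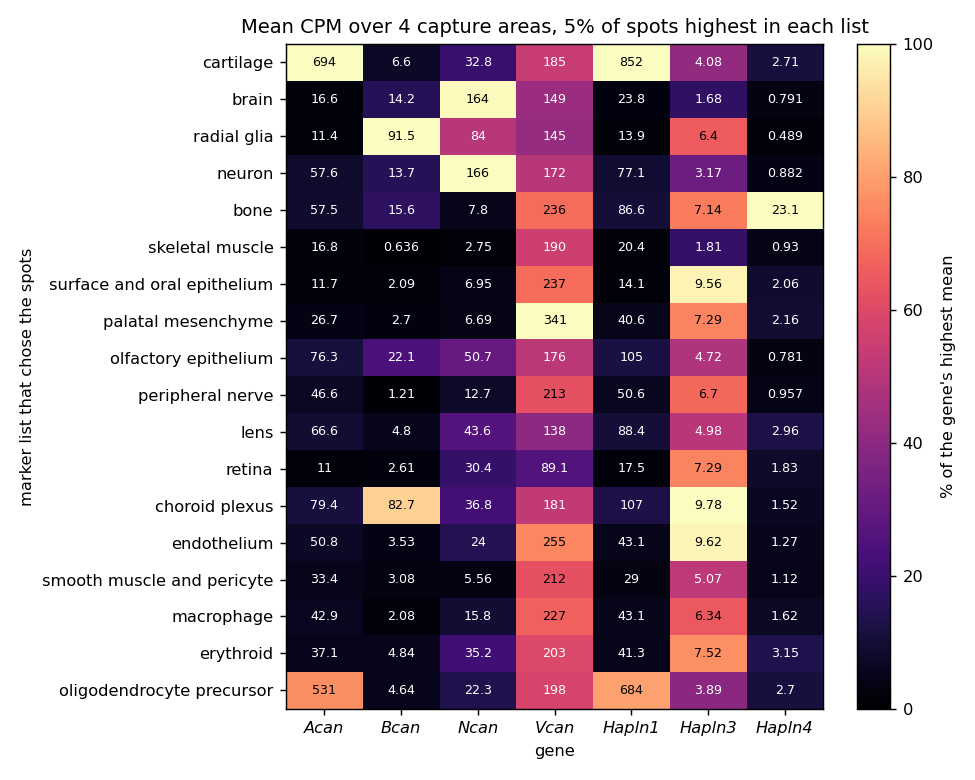
Mean CPM over the 4 capture areas (numbers) of 7 genes in the 5% of spots highest in each of 18 marker lists, with color as percent of the highest mean of the gene. Acan and Hapln1 peak in cartilage, Vcan in palatal mesenchyme, Hapln4 in bone, and Ncan in brain and neuron spots. The high Bcan means in radial glia and choroid plexus spots come from E14.5 replicates 2,3,4, at 308 and 315 CPM.

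Likeness of pattern was measured as the correlation of log2(CPM + 100) over the spots of a section, averaged over the 8 sections, against 12151 other genes. Spots share a library and depth, so these values are descriptions. Acan was most like Matn1 (mean r = 0.80), Cnmd (0.80) and Hapln1 (0.79), and Hapln1 was most like Matn1, Cnmd and Acan. Acan and Hapln1 were thus each the third most alike for the other, with r between 0.43 and 0.93 by section. Matn1 and Cnmd are cartilage genes of the list that chose the spots.

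The other genes had other neighbours. Ncan was most like Crmp1 (0.68), Nsg2 (0.68) and Stmn3 (0.67), which are expressed in neurons. Hapln4 was most like Phospho1 (0.39), Panx3 (0.39) and Ifitm5 (0.39), genes of bone-forming cells. Vcan was most like Msx1 (0.36), Six2 (0.32) and Slit3 (0.31), genes of mesenchyme. Bcan was most like Ttyh1 (0.30) and Igfbpl1 (0.29), with r by section from 0.00025 to 0.71 for Ttyh1 and from 0.027 to 0.59 for Igfbpl1. Ttyh1 is on the brain and radial glia lists, Ifitm5 on the bone list and Msx1 on the palatal mesenchyme list. For Hapln3 the highest value was 0.11, for Col7a1, too weak to describe a pattern.

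For the genomic pairs the mean r over spots was near 0. It was -0.01 for Acan and Hapln3, -0.08 for Ncan and Hapln4 and 0.04 for Vcan and Hapln1. Hapln3 and Hapln4 had 1341 and 1046 UMIs over all tissue spots. Their highest r with any gene was 0.11 and 0.39, so values near 0 for their pairs cannot show that the patterns differ. Hapln2, with under 1000 UMIs, was left out. Among the pairs that do not neighbour each other, Acan with Hapln1 stood at 0.79 and Bcan with Ncan at 0.20.

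The stages were compared as 2 areas against 2, in cartilage, in brain and over all tissue. Of all genes, 0% passed the threshold in each (edgeR, with 146 of 14386, 291 of 13969 and 930 of 15609 genes at an unadjusted p under 0.05). Thus 0 of the 7 genes tested in cartilage and in brain were called, and 0 of the 8 over all tissue. Hapln2 was tested only over all tissue. DESeq2 called 1, 0 and 28 genes. Acan in cartilage stood at 180 and 112 CPM at E14.5 and at 75.1 and 382 CPM at E15.5, so the E15.5 areas lay on both sides of the E14.5 areas. Its log2 difference of 0.66 ± 0.61 (SE) turned to -1.02 without E15.5 replicates 2,3,4.

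Hapln1, with 0.61 ± 0.59, was split in the same way. Ncan, Vcan, Hapln3 and Hapln4 in cartilage differed by 0.01 ± 0.41, 0.05 ± 0.25, 0.14 ± 0.44 and -0.44 ± 0.48 (log2, SE). In brain, Ncan differed by -0.26 ± 0.43 and Vcan by 0.12 ± 0.37, each within its spread, and by 0.28 and -0.08 without the brain spots of section B. With 2 areas a stage, these errors do not show that the stages were alike.

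Bcan had a larger stage difference than the other genes tested in brain and over all tissue, but not in cartilage (-0.54 ± 0.53, log2, SE) and not without E14.5 replicates 2,3,4. In brain it stood at 14.8 and 110 CPM at E14.5 and at 5.60 and 14.2 CPM at E15.5. Both E14.5 values lay above both E15.5 values, but 14.8 CPM in E14.5 replicate 1 was close to 14.2 CPM in E15.5 replicates 2,3,4. The log2 difference of -2.80 ± 0.87 (SE) did not pass the adjustment (edgeR model over all genes, adjusted p = 0.97). With no filter on low counts it did (adjusted p = 1.1e-09). It was -0.65 without E14.5 replicates 2,3,4, where Hapln4 stood at 1.03 and Hapln1 at -0.74, and -1.99 without the brain spots of section B. By section the stages overlapped, with 9.17 to 157 CPM at E14.5 and 4.25 to 37.2 CPM at E15.5. Without brain spots that carried choroid plexus genes the difference was -1.51 ± 0.60, and the change in size beside the choroid plexus spots was not tested.

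The change between stages was also compared between cartilage and brain. Of 14651 genes, 0% were called (edgeR interaction test, 295 at an unadjusted p under 0.05). Bcan had the largest value of the 7 genes tested, 2.03 ± 0.68 (log2, SE, adjusted p = 0.97), and the others lay between -0.64 and 0.46. Without E15.5 replicate 1 it was 2.39 (adjusted p = 9.9e-08) and without E15.5 replicates 2,3,4 it was 2.21 (0.00033), where the lone E15.5 area is assumed to vary like the others. It was 0.55 without E14.5 replicates 2,3,4 and 2.78 without E14.5 replicate 1, and was not called in either (adjusted p = 1 for both). Without the brain spots of section B it was 1.65 and without brain spots that carried choroid plexus genes 0.97. Over all tissue, Bcan differed by -2.44 ± 0.64 (edgeR adjusted p = 0.77, DESeq2 adjusted p = 0.013), and by -1.13 without E14.5 replicates 2,3,4, where Ncan stood at -1.20.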

How the data were processed

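Visium libraries of 4 capture areas (8 sections of wild-type mouse heads) were analysed. Raw UMI counts of genes in spots were deposited by the authors. The file headers name Space Ranger 1.3.1 in both replicate 1 areas and 2.0.0 in both other areas, so the version differs within a stage, and the labels name the mm10 build. The labels describe poly-T capture in the FFPE workflow, and a probe set is not given in the sources used here. Gene positions came from GENCODE M21 by identifier. Areas held 15438992 to 109127953 tissue UMIs, with medians of 6752 to 64051 UMIs per spot. The array barcodes repeat between areas, with 3185 distinct barcodes among 6357 spots and 192 in all 4 areas.

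The 6357 spots over tissue entered, without a doublet caller. Sections were lettered along the array. Thresholds for cartilage and brain were set by Otsu's method on log2(list CPM + 100). UMIs were summed over region and area and tested with edgeR 4.0.16 (quasi-likelihood, TMM, filterByExpr, capture area as block in region comparisons) in R 4.3.3, with Benjamini-Hochberg adjustment over all genes tested and a threshold of 0.1. DESeq2 1.42.0, other scalings, filters, thresholds and region rules, sections as samples and left-out areas were alternatives. In simulated counts, 100 genes were changed by a log2 of 1, 100 by a log2 of 2 and the rest by none. On these counts the cartilage and brain test (14651 genes) recovered 65% of changes of 1 and 94% of changes of 2, with 13.6% of calls false. In the data 66.2% of genes were called between cartilage and brain, so those rates hold for the simulated setting only. The stage test recovered 23% and 88% in cartilage (14386 genes, 20.7% of calls false) and 5% and 58% in brain (13969 genes, 30% false). Intervals and floors (3 counts) cover counting error only. All 8 genes were named, with the 6 partners of largest called difference in each direction for cartilage against brain, 3 for the others, and the 3 genes most alike, of which 1 is not reported here. All value columns were used (0 left out). The genes, lists and comparisons were chosen with earlier results of these data known.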

Additional observations from a re-analysis of the deposited data

Results flagged for a closer look

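The CPM in cartilage and in brain was compared over the 4 sections of each stage for the genes with enough UMIs there, in 29 groups of 4 sections, and 1 group held a section far from the others. Ncan in the brain spots of E15.5 section B stood at 5.14 CPM, while the other E15.5 sections stood at 152 to 171 CPM, a gap of 0.888 of the whole range against a limit of 0.829. Chance alone flags about 1 in 20 groups. Section B had a median brain-list level of 387 CPM in those spots, and its part in the Ncan value was not tested.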

How the results depend on the processing

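Over the alternatives, 787 of the values for single genes stayed on their side of the threshold, 22 lost the call, 21 gained it and 4 lost it and turned sign. Of the 787, 701 kept their sign and 86, called in neither fit, did not. Against the flank, Bcan turned to -0.18 in the 10% of spots highest in cartilage genes and -0.25 at a fixed list level, and Hapln4 to -0.11 and -0.42. Acan and Hapln1 kept their call against brain and flank in every alternative run. The cause of the changes below was not tested.

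With no replicate block, the calls were 2213 of 12696 genes for the radial glia zone, 606 for the flank and 2214 for bone against core. With a replicate block the stage test in cartilage called 3 genes and changed no other stage count. Areas with the same number shared a correlation of deviations of 0.298 over tissue, -0.0739 in cartilage and 0.141 in brain (2 pairs). The number was not taken as pairing, and areas with the same number also shared the Space Ranger version and the number of sections. The stage in cartilage also gave 1 gene with DESeq2, 27 with no filter and 2 with sections as samples. The stage in brain gave 340 with no filter, the stage over all tissue 28 with DESeq2 and the stage by region 10 at a fixed list level.

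Leaving out each area in turn gave 6699 to 10453 calls for cartilage against brain, 3619 to 6703 for the zones (3775 without E14.5 replicates 2,3,4 and 4312 without E15.5 replicate 1), 1877 to 2906 for the flank and 3793 to 5642 for bone against core. For the stages it gave 0 to 21 calls in cartilage (11 without E14.5 replicates 2,3,4 and 9 without E15.5 replicates 2,3,4), 0 to 1661 in brain, 0 to 78 over all tissue and 0 to 1919 by region (127 without E15.5 replicates 2,3,4). The highest stage values came without E15.5 replicate 1. Hapln2, with 62 UMIs, was too low to test between regions, Hapln3 and Hapln4 had 1341 and 1046 UMIs in all, and E14.5 replicate 1 was the shallowest library.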
